A study of Homo sapiens with 8 samples.

Results

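The SF3b-binding compound H3B-8800 was compared with its solvent DMSO in RNA recovered with the J2 antibody, which recognises double-stranded RNA. The comparison used 4 of the 8 libraries of the study, chosen by their labels as J2-enriched. All were made from SUM159, an established line of human triple-negative breast cancer cells. The groups were J2 RNA of cells given H3B-8800 for 12 h (2 biological replicates, called drug here) and J2 RNA of cells given DMSO for the same time (2 biological replicates, called vehicle here). The other 4 libraries, input RNA of the same 2 treatments, entered only as a second set of libraries and for the shared estimate of spread. Neither group carries a genetic change according to the labels, every library comes from 1 cell line, and all were selected for polyadenylated RNA before sequencing. No immunoprecipitation with a control antibody was analysed here, so recovery by J2 does not by itself show that an RNA was double-stranded.

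The spliceosome removes introns in 2 chemical steps, and SF3b, a part of the U2 small nuclear ribonucleoprotein, holds the branch point adenosine from which the first step starts. Branch points lie close to the 3′ end of an intron, upstream of the pyrimidine tract and the closing AG. When SF3b is blocked, some introns stay in the RNA and others are still removed. A retained intron can pair with itself or with other transcripts, and repeats inside introns are a known source of double-stranded RNA.

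Each library came with reads inside each of 142206 introns of 15902 genes and with reads taken as spliced across the same introns. Depths were 50000000 and 53000000 reads with drug and 53000000 and 57000000 with vehicle, and RPM (reads-per-million) is a count scaled to that depth. An intronic share is the percentage of intronic reads among intronic plus spliced reads of 1 intron or gene. It is not corrected for intron length and cannot be read as the part of the transcripts in which the intron stays. In bulk RNA, fewer cells making a transcript and less of it per cell cannot be told apart. Counting intervals and lower bounds cover counting error only. The defining mesenchymal genes VIM and AXL were strongly recovered (547 and 533 RPM of spliced reads with drug against 653 and 626 RPM with vehicle for VIM). The luminal genes ESR1, PGR and EPCAM and the lymphocyte genes CD3E and MS4A1 had no spliced read in any J2 library, while the epithelial keratin KRT8 had 94.5 and 94.0 RPM with drug against 124 and 123 RPM with vehicle. The 2 drug libraries differed from each other more than the 2 vehicle libraries did, with a chi-square per degree of freedom of 15.5 against 4.38.

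With drug, far more of the J2-recovered RNA lay inside introns. Among introns free of exons of other genes, intronic reads made up 12.0% and 11.7% of intronic plus spliced reads in the drug libraries, against 2.74% and 2.91% in the vehicle libraries. The group means were 11.8% ± 0.193 with drug and 2.82% ± 0.120 with vehicle (SD, n = 2 each), and the groups did not overlap. An exact permutation test of 2 libraries against 2 cannot give a two-sided p below 0.333, so these shares carry no test. The total rested on more intronic reads (1692371 and 1728916 with drug, 500616 and 582852 with vehicle, over all introns) and fewer spliced reads (11369696 and 12054679 with drug, 13295010 and 14060879 with vehicle).

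The shift was uneven over introns. Of 32937 introns with at least 20 reads in each group, the median intronic share was 2.15% with drug and 0.115% with vehicle. No intronic read was seen at 8976 of them with drug and at 15594 with vehicle. Over 50% of the reads were intronic at 3157 introns with drug and at 1008 with vehicle. A change of state, from under 10% with vehicle to over 50% with drug, was found at 1185 introns, and the reverse at 8.

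**Figure D1:**
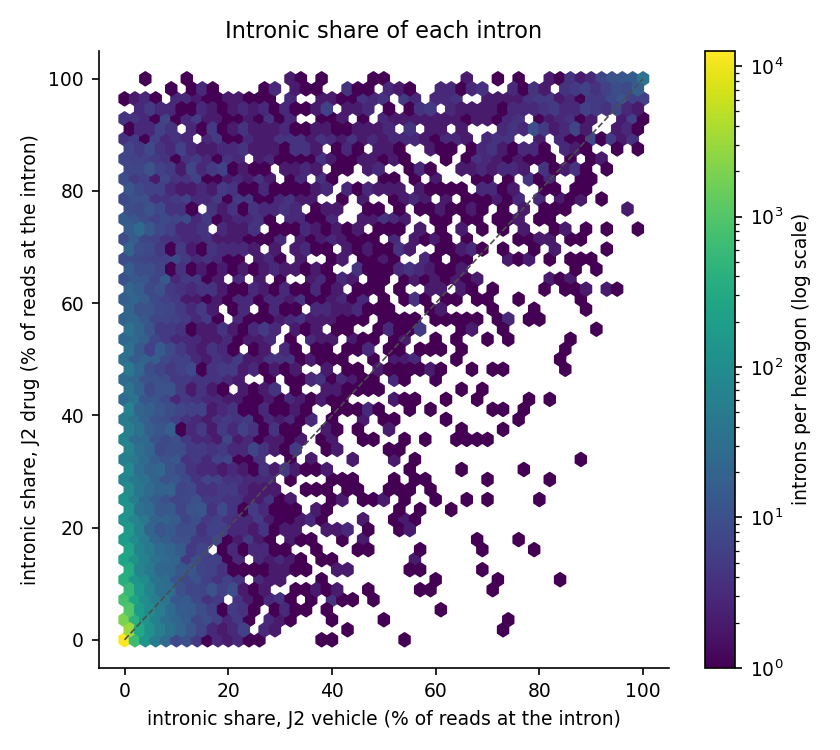
Intronic share of single introns in pooled J2 drug libraries (vertical axis, %) against pooled J2 vehicle libraries (horizontal axis, %), for introns with at least 20 reads in each group, with colour giving the number of introns per hexagon on a log scale and the dashed line marking equal shares. Most introns lie near the lower left corner, and the column of introns along the left edge holds those that were nearly free of intronic reads with vehicle, including the 1185 that passed 50% with drug.

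Tests were run on every intron. Intronic reads rose at 10438 of 15476 introns (67.4%) and fell at 806 (5.21%), by edgeR's quasi-likelihood test with Benjamini-Hochberg adjustment and a threshold of 0.05, with a median log2 fold change of 2.60. Of those introns 2247 had no read in a J2 group, and with their fold changes set to a lower bound the median was 2.42. The intronic to spliced ratio, which does not depend on depth, rose at 14892 of 33280 introns (44.7%) and fell at 1736 (5.22%) by limma with the same adjustment. Many of these calls had few intronic reads behind them, since with hardly any intronic read the ratio moves with the spliced reads alone. With at least 10 intronic reads in the group where the intron was higher, 9834 introns rose (29.5%) and 382 fell (1.15%). With edgeR on intronic and spliced reads as 2 columns, 9817 rose (29.5%) and 268 fell (0.805%). Below, an intron is said to have risen in ratio if it met that minimum too.

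The introns with the largest rises in intronic reads, under the naming rule of at least 2 RPM and no exon of another gene inside, had no read at all in either vehicle library. They included DYNC1H1 intron 68 of 77 (GRCh38, chr14:102042508-102042634, 127 bases, plus strand), in the heavy chain of cytoplasmic dynein, the motor that moves cargo towards microtubule minus ends. It held 342 and 307 intronic reads with drug and 0 and 0 with vehicle, at least 231-fold higher with the empty group set to 3 counts. Spliced reads at the same intron were 85 and 78 with drug and 122 and 99 with vehicle, so that 80.1% and 79.7% of its reads were intronic with drug. In SBF1, a pseudophosphatase of the myotubularin family, the first of 40 introns (chr22:50468462-50474785, minus strand) held 351 and 348 reads with drug and none with vehicle, at least 249-fold higher, and 91.4% and 94.6% of its reads were intronic. MAP1S, a microtubule-associated protein, had 368 and 389 reads in intron 3 of 6 (chr19:17724209-17725048, plus strand) with drug and none with vehicle. This intron also holds another annotated exon of MAP1S. The naming rule also asked that the groups not overlap at an intron.

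Introns of this kind differed in length and in the role of their genes. Intron 4 of 17 of GRAMD1A, a sterol transfer protein of membrane contact sites (chr19:35010196-35010283, plus strand), has 88 bases and held 375 and 425 reads with drug and none with vehicle, at least 285-fold higher. Its intronic share with drug was 53.3% and 57.3%. Intron 7 of 9 of STK11, the kinase LKB1 that activates AMPK, held 201 and 207 reads with drug and none with vehicle, with intronic shares of 42.1% and 42.2%. KIAA0930 intron 8 of 9 (chr22:45197949-45199872, minus strand) had the largest bound, at least 318-fold, with 460 and 434 reads with drug and none with vehicle. Further members of this set were PPP1R37 intron 12, MEF2D intron 3, PRPF40B intron 10, PCNXL3 intron 7 and DNPEP intron 7, at least 145-fold to 259-fold higher. Among them PRPF40B, a splicing factor of the early spliceosome, had 83.9% and 82.0% intronic reads at that intron with drug.

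The largest rises in ratio joined many intronic reads with fewer spliced reads, and at TMEM120B and TMEM63B nearly all spliced reads were lost. TMEM120B intron 3 of 11 (chr12:121748443-121750379, plus strand) held 1138 and 1160 intronic and 3 and 6 spliced reads with drug, against 6 and 1 intronic and 79 and 68 spliced reads with vehicle. Its intronic share was 99.7% and 99.5% with drug and 7.06% and 1.45% with vehicle, a log2 change of the ratio of 12.08 ± 0.57 (SE, limma with Benjamini-Hochberg, adjusted p = 0.000135). Without J2 vehicle replicate 1 or 2 the value was 12.87 and 11.28. TMEM63B, an ion channel opened by membrane stretch, had 99.8% and 99.3% intronic reads at intron 15 of 23 (chr6:44148946-44149858, plus strand) with drug and 11.4% and 11.4% with vehicle (10.18 ± 0.64, and 9.58 and 10.78 without J2 drug replicate 1 or 2). In NADK, the kinase that makes NADP from NAD, intron 8 of 13 (chr1:1755477-1756257, minus strand) held 1316 and 1393 intronic reads with drug and 4 and 2 with vehicle, with shares of 88.3% and 88.2% against 0.742% and 0.345% (10.07 ± 0.47). SYMPK is a scaffold of the complex that cleaves messenger RNA 3′ ends. In its intron 17 of 26 (chr19:45825332-45826225, minus strand) lay 832 and 846 reads with drug, against 2 and 0 with vehicle. That is a ratio per depth of 896 with a 95% counting interval of 247.7 to 7405. Its log2 ratio change was 9.86 with all libraries and 10.73 and 8.98 without J2 vehicle replicate 1 or 2. Drug and vehicle values do not overlap at these introns because the naming rule asked for it.

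Genes of membrane traffic and receptor signalling were among the same set. ADRBK1, the kinase GRK2 that phosphorylates activated G protein-coupled receptors, held 333 and 406 reads inside intron 17 of 20 (chr11:67283950-67284210, plus strand) with drug, against 3 and 4 with vehicle. RAB24, a small GTPase linked to autophagy, had 213 and 240 at intron 7 of 8 (chr5:177301988-177302127, minus strand) with drug and 1 and 1 with vehicle, a ratio of 242 with an interval of 66.6 to 2003. AP3D1, the delta subunit of the AP-3 adaptor that sorts cargo to lysosomes, had 95.7% and 94.9% intronic reads at intron 5 of 29 with drug and 0.949% and 3.53% with vehicle, and its log2 ratio change of 9.80 was 8.98 and 10.62 without J2 vehicle replicate 1 or 2. INF2, an actin-nucleating formin, had 272 and 305 reads in an intron of 74 bases with drug and 1 and 0 with vehicle. A less certain member was WDR24, of the GATOR2 complex. The WDR24 value of 9.65 ± 1.22 ranged from 8.30 to 11.01 without 1 J2 library, lowest without J2 drug replicate 1 and highest without J2 drug replicate 2. These genes were taken in order of their change, so their sizes describe the upper end of the distribution.

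**Figure D2:**
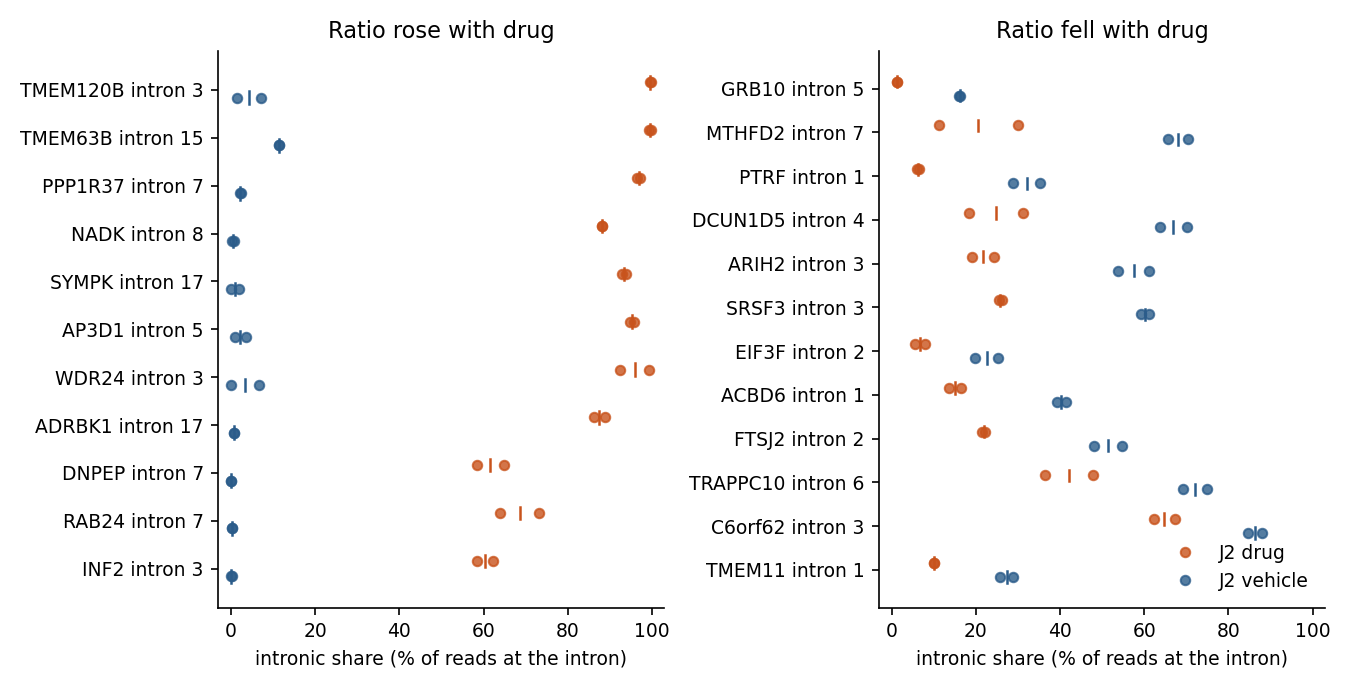
Intronic share (horizontal axis, % of intronic plus spliced reads at the intron) of introns with large rises (left panel, 11 introns) and falls (right panel, 12 introns) of the intronic to spliced ratio, with 1 point per library, drug above vehicle in each line, and a tick at the group mean. Drug and vehicle points do not overlap because introns were named only where they did not, and the rises reach 58.4% to 99.8% with drug.

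Within a gene the calls differed from intron to intron. An intron not called risen is not shown to be unchanged. In simulated counts the ratio test found 0% of log2 changes of 2 and 74% of those of 4. Of 2305 genes with at least 5 tested introns, 458 had no intron that rose in ratio, 455 had 1, 1361 had several but not all, and 31 had all. The median gene had 25% of its tested introns risen, and 78.8% of the genes had both an intron called risen and one not called. Neighbours were more alike than introns at large, as the next intron rose after 51.7% of introns that rose and after 22.8% of those that did not (19758 pairs). In 1033 of these genes that gained at least 2 RPM of intronic reads, a median of 54.7% of the gain lay in 1 intron. That intron held over 50% of the gain in 604 genes and over 90% in 118.

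PPP1R37, a regulatory subunit of protein phosphatase 1, shows the mixture over 12 listed introns. Its first 3 introns stayed low, with 8.70%, 1.2% and 0% intronic reads with drug and 19.2%, 0% and 0% with vehicle, and none of them passed the test. The 9 introns that follow all rose. Intron 7 (chr19:45142459-45143520, plus strand) held 1704 and 1896 intronic reads with drug and 4 and 4 with vehicle, and intron 8 held 1560 and 1591 with drug and 8 and 4 with vehicle. In NADK 6 of 7 tested introns rose, but intron 10, with 160 bases, had no intronic read with drug and 2 and 0 with vehicle (0% and 0.175% of its reads). AP3D1 had 18 of 28 tested introns risen, SYMPK 10 of 23 and TMEM63B 6 of 16. In TMEM120B intron 3 alone held 95.8% of the intronic reads with drug.

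**Figure D3:**
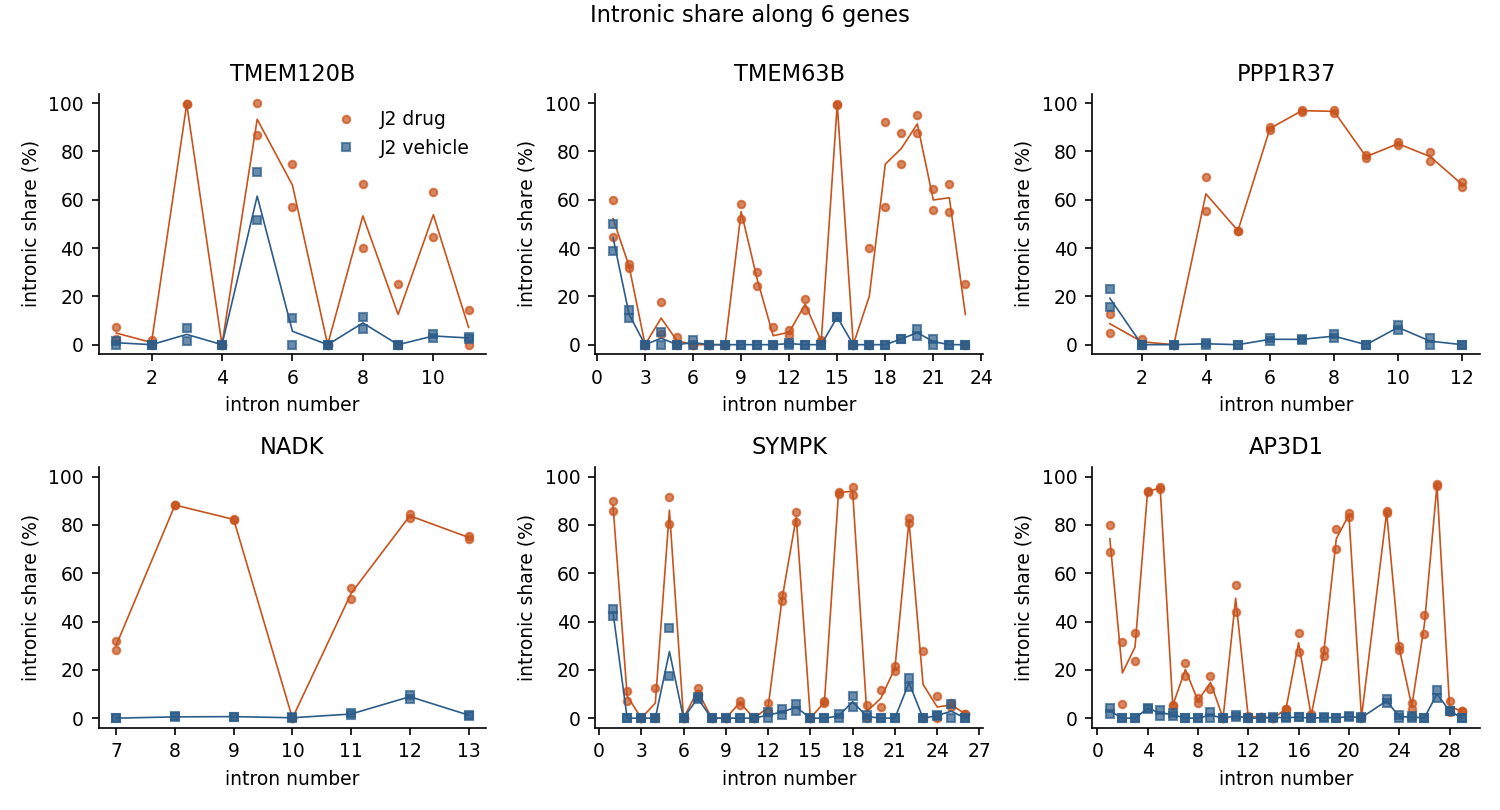
Intronic share (vertical axis, %) of each listed intron by its number in the transcript (horizontal axis) in 6 genes, with drug libraries in orange and vehicle libraries in blue, 1 point per library. Retained and removed introns occur in the same gene, as runs in PPP1R37 (introns 1 to 3 low, introns 4 to 12 high) and singly in NADK, with intron 10 at 0% between intron 9 at 82.3% and intron 11 at 51.7% (means with drug).

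In some genes the spliced reads changed level at the retained intron. In TMEM63B the 14 introns before intron 15 averaged 1.52 and 1.32 RPM of spliced reads with drug and 1.10 and 1.09 RPM with vehicle, whereas the 8 introns after it averaged 0.0825 and 0.125 RPM with drug and 1.28 and 1.2 RPM with vehicle. PREX1, an exchange factor for the GTPase RAC, had 10.8 and 8.88 RPM before its intron 8 with drug and 1.91 and 1.75 RPM with vehicle. After that intron it had 0.449 and 0.421 RPM with drug and 2.00 and 1.99 RPM with vehicle. DPP9, a dipeptidyl peptidase that restrains inflammasomes, had 11.2 and 10.5 RPM before intron 13 with drug and 5.90 and 5.69 RPM with vehicle, and 2.02 and 1.71 RPM after it with drug and 6 and 5.84 RPM with vehicle. The side before the intron was thus at or above vehicle in these 3 genes and the side after it far below, in both drug libraries.

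Such a step was not the rule. Of 360 genes with over 50% of the gain in 1 intron, that intron risen, and a mean of at least 20 spliced reads per intron and vehicle library on each side, 44 (12.2%) had a log2 change after the intron at least 1 lower than before it, and 8 had one at least 1 higher. The median difference was -0.13, and it was -0.09 and -0.14 in J2 drug replicate 1 and 2 alone. In 388 genes with no risen intron, split at the middle intron, 25 (6.44%) were at least 1 lower after it and 38 at least 1 higher, with a median of -0.05. Of the 44 genes, 24 met the same limit in the input libraries, as did 37 of all 360. Of the 25 genes with no risen intron, 0 met it in the input, and of all 388 such genes 31 did. These steps were looked for after the values of TMEM120B and TMEM63B were seen, and they are given without a test.

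Spliced reads also fell more at the retained introns themselves, though a fall of spliced reads raises the ratio by which introns are called risen. In 1494 genes with an intron whose intronic reads rose to at least 100 and another with fewer than 10, the median log2 change of spliced reads was -0.33 at the risen introns and -0.16 at the quiet introns. In 980 of the genes (65.6%) the retained introns had the lower change. How much of this difference comes from the way introns are called was not tested.

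The end of an intron, where SF3b acts, can be read for introns whose last bases lie inside an exon of some annotated transcript. The last 60 bases of 16920 listed introns were taken from GENCODE 29 transcripts on GRCh38 for this purpose. Capitals mark the closing AG and any match to CTNAC or CTNAT, letters that resemble the human branch point motif, searched on the intron's own strand with overlaps counted. Of the 16920 ends, 47.8% hold such a match, so a match does not identify a branch point. The first set shows 1 retained intron of DYNC1H1 (79.9% intronic with drug over both libraries, 0% with vehicle) beside quiet introns of the same gene, to show ends that went with different outcomes in 1 transcript. Introns 54 and 58 had no intronic read in any J2 library beside 211 and 144 reads with drug, and intron 69 had 0.756% with drug and 0% with vehicle.
DYNC1H1 intron 68, retained, chr14:102042575-102042634: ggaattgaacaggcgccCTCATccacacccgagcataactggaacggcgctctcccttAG
DYNC1H1 intron 54, quiet, chr14:102033916-102033975: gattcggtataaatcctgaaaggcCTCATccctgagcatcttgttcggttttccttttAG
DYNC1H1 intron 58, quiet, chr14:102038638-102038697: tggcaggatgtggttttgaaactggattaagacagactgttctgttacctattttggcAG
DYNC1H1 intron 69, quiet, chr14:102043815-102043874: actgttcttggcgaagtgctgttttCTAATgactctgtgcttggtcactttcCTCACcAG

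Of these 4 ends, the retained one has 35 G or C bases and 4 T among the 20 bases before the AG. The quiet ones have 26, 25 and 28 G or C bases and 12, 11 and 8 T. Other quiet introns of DYNC1H1 were about as rich in G and C as the retained one, such as intron 64 with 37 such bases (0.464% of 431 reads intronic with drug) and intron 76 with 33 (0.488%), so the contrast holds for the ends shown and not for the gene. A second set, from genes named above, shows pairs in which the contrast is absent. ADRBK1 intron 17 (87.7% intronic with drug, 0.677% with vehicle) and RAB24 intron 7 (68.5% and 0.142%) were retained. ADRBK1 intron 12 had 0% with drug and with vehicle, and RAB24 intron 2 had 0.418% and 0%.
ADRBK1 intron 17, retained, chr11:67284151-67284210: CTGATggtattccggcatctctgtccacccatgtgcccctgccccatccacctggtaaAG
ADRBK1 intron 12, quiet, chr11:67282375-67282434: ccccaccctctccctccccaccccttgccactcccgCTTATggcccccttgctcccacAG
RAB24 intron 7, retained, chr5:177301988-177302047: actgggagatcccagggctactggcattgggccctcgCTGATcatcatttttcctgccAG
RAB24 intron 2, quiet, chr5:177303078-177303137: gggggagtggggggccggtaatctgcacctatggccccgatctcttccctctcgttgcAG
Both quiet ends of this set are richer in G and C (42 and 39 bases) than the retained ends (35 and 34 bases).

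Across all introns free of other genes' exons, the share called risen went with length, place and base composition. Of 30169 such introns 8906 rose (29.5%). The share fell steadily with length, with 36.5% of introns under 100 bases, 33.4% of those from 100 to under 200, 29.3% of those from 1000 to under 2000 and 11.3% of those of 20000 bases or more. Last introns rose more often (38.2%) than internal (29.1%) and first introns (23.8%). The order depended on length. From 100 to under 1000 bases, 38.4% of first, 30.7% of internal and 40.4% of last introns rose, and from 1000 to under 5000 bases 20.8%, 28.0% and 35.1%. The median intronic share with drug did not follow the calls. It was 2.02% under 100 bases and 3.16% from 5000 to under 20000, against 0% and 1.48% with vehicle. It was 3.39% in first and 1.65% in internal introns, against 1.71% and 0% with vehicle. Median reads per J2 library were 146 under 100 bases and 89.25 at 20000 bases or more, and their part in the calls was not tested.

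Base composition showed the widest range. Of introns whose last 60 bases were under 40% G and C, 17.1% rose, and the share was 31.1%, 44.6%, 61.7% and 69.9% in the bins up to 50%, 60%, 70% and above. Without J2 drug replicate 1 the lowest and highest bins gave 14.3% and 62.6%, and without J2 drug replicate 2 15.2% and 62.9%. In the input libraries the same bins gave 19.3% and 62.3%. Median reads per intron and J2 library were 101.25 and 193.5 in these bins, and their part in the calls was not tested. Ends of introns that rose were 59.6% ± 11.1 G and C (SD, 2970 introns), against 49.9% ± 13.8 in 3432 introns not called higher, with 6.34 against 8.14 T and 8.11 against 6.62 C in the 20 bases before the AG. The letters CTNAC or CTNAT stood in 45.5% of the ends that rose and 51.1% of the others. Within genes that held both kinds, the difference in G and C was 3.20 percentage points on average (811 genes, higher at the risen introns in 490 and lower in 290). These ends come from introns whose last 60 bases lie inside an annotated exon, and such introns rose more often at large (46.4%, against 25.0% of the others). Of introns lying whole inside an annotated exon 52.3% rose, and of the rest 26.6%. Introns of 1 gene share its transcripts and read depth, so these shares are descriptions and carry no test.

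**Figure D4:**
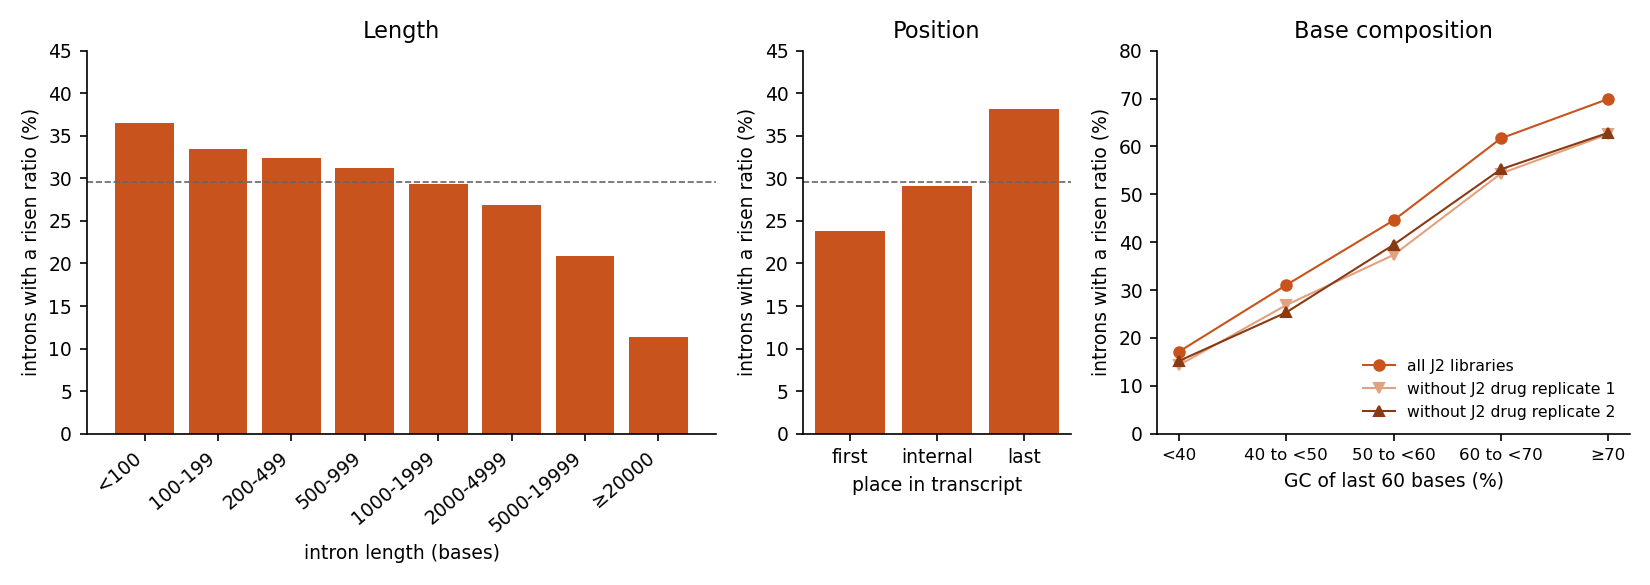
Share of introns whose intronic to spliced ratio rose with drug (vertical axis, %) by intron length in bases, by place in the transcript and by G and C content of the last 60 bases, each for introns free of exons of other genes. The share lies at 36.5% for the shortest and 11.3% for the longest introns, and at 17.1% and 69.9% for the lowest and highest G and C bins.

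Falls in intronic reads were called far less often than rises with the scaling by depth, at 806 introns. GRB10, an adaptor that restrains insulin receptor signalling, had 11 and 12 reads in intron 5 of 16 (chr7:50626979-50669721, minus strand) with drug and 124 and 115 with vehicle, while its spliced reads were 948 and 893 with drug and 639 and 604 with vehicle. Its intronic share was 1.15% and 1.33% with drug and 16.3% and 16% with vehicle (log2 ratio change -3.84 ± 0.36, limma with Benjamini-Hochberg, adjusted p = 0.000364). The folate enzyme of mitochondria MTHFD2 fell in share at intron 1 of 7 to 2.91% and 3.43% with drug, against 11.7% and 12.3% with vehicle (-2.01), and at intron 7 to 29.9% and 11.3% against 65.5% and 70.3% (-3.13, and -3.98 and -2.28 without J2 drug replicate 1 or 2). The naming rule asked that the groups stay apart at these introns. The fall at MTHFD2 intron 7 was not met in the input, where the mean share was 40.7% with drug and 38.6% with vehicle.

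Falls of the ratio also touched regulators of RNA and protein turnover. SRSF3, a serine and arginine rich splicing regulator, is known to limit its own protein through an alternative exon that brings a stop codon. Its intron 3 of 5 (chr6:36598984-36601151, plus strand), which holds another annotated SRSF3 exon, held 483 and 416 reads with drug, against 1913 and 2113 with vehicle. The shares were 26.1% and 25.5% with drug and 59.3% and 61.1% with vehicle (-2.12 ± 0.31, adjusted p = 0.00192 by limma with Benjamini-Hochberg). PTRF, the caveolar coat protein cavin, had 6.38% and 5.90% with drug and 28.8% and 35.3% with vehicle at its single intron. DCUN1D5, a neddylation factor, had 31.2% and 18.4% with drug and 63.7% and 70% with vehicle at intron 4. This fall was not met in the input, where the mean share was 61.4% with drug and 59.2% with vehicle. ARIH2, a ubiquitin ligase, had 19.2% and 24.3% against 61.2% and 53.8% at intron 3. EIF3F, of the initiation factor eIF3, had 5.44% and 7.82% against 25.3% and 19.8% at intron 2. The introns of DCUN1D5 and ARIH2, like TRAPPC10 intron 6, hold another annotated exon of their own gene. TRAPPC10 intron 6 (36.4% and 47.7% with drug, 69.1% and 74.9% with vehicle) passed with an adjusted p of 0.0113 by limma but not without J2 drug replicate 1 (0.0582) or J2 vehicle replicate 2 (0.0581). The end of the SRSF3 intron is shown with that of the intron after it, whose intronic share was 0.0908% with drug and 0% with vehicle. Both are low in G and C, with 22 and 14 such bases of 60.
SRSF3 intron 3, fell, chr6:36601092-36601151: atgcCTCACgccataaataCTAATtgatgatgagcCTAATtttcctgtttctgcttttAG
SRSF3 intron 4, quiet, chr6:36601648-36601707: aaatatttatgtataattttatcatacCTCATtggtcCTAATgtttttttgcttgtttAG

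Most of the largest falls in intronic reads came with lower spliced reads at the same introns. CPAMD8 intron 41 (21 and 11 intronic reads with drug, 701 and 667 with vehicle), TTC32 intron 1 (13 and 20, against 235 and 216) and DHX58 intron 1 (22 and 26, against 152 and 180) are examples, with 4 and 0, 3 and 1, and 0 and 1 spliced reads with drug against 36 and 54, 81 and 82, and 14 and 17 with vehicle. Each of these introns, like VTI1A intron 1 and NMRK1 intron 2, also holds another annotated exon of its own gene. DHX58 encodes LGP2, a cytoplasmic sensor of double-stranded RNA. In 9 of the 12 introns named for a fall in intronic reads the ratio did not pass the test, the exceptions being GRB10, MTHFD2 and VTI1A. Of these 12, NMRK1 intron 2 had a log2 fold change of -3.13 with all libraries and -4.07 without J2 drug replicate 2.

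Many rises in J2 RNA were also called in the input libraries, which shared the same fit and estimate of spread. Among introns free of other genes' exons, 8906 rose in ratio in J2 RNA. Of these 7467 (83.8%) also rose in the input and 9 fell. Of all 30169 such introns tested, 44.6% rose in the input. The 8906 had at least 10 intronic reads with drug and the 30169 had no such minimum, so these shares are not like for like. Of 286 introns that fell in J2 RNA, 96 (33.6%) fell in the input and 23 rose. The difference between the drug effects in J2 RNA and in input passed at 0 of 33280 introns in either direction (0.00%) by limma with Benjamini-Hochberg, with 3150 higher and 2958 lower in J2 RNA at an unadjusted p under 0.05. With 2 libraries a group this test misses many changes of moderate size, so the count of 0 does not show that the effects were alike. By the edgeR fit on 2 columns, 82 (0.246%) were higher and 51 (0.153%) lower. The counts with a larger pseudocount, given in the closing section, were higher.

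Spliced reads, which come from RNA whose intron was removed, changed in most genes. Of 8461 genes tested 2927 rose (34.6%) and 3344 fell (39.5%) by edgeR's quasi-likelihood test with Benjamini-Hochberg adjustment, with a median log2 fold change of -0.03. The change followed the base composition of the transcript. In 5 groups of equal number by G and C content, from lowest to highest, the median log2 change was 1.02, 0.26, -0.22, -0.50 and -0.49. The 2 drug libraries differed along the same axis (Spearman -0.489 for replicate 2 over 1 against G and C, across 8283 genes, against 0.051 between the vehicle libraries; genes are not independent replicates). With each library's trend over transcript G and C removed, 75.8% of the rises and 73.2% of the falls kept their call. Its part in the results was not tested, and values with this trend removed are given for named genes and lists where they differ in call or clearly in count.

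The largest gene-level rises in spliced reads were in transcripts with few spliced reads in the vehicle libraries. GUCA1B, a guanylate cyclase activator of photoreceptors, had 13.4 and 12.6 RPM with drug and 0.623 and 0.737 RPM with vehicle (4.25 ± 0.16, edgeR with Benjamini-Hochberg, adjusted p = 3.30e-08). CUL5, a cullin scaffold of ubiquitin ligases, had 3.94 and 8.38 RPM with drug and 0.434 and 0.368 RPM with vehicle (3.94, and 3.29 without J2 drug replicate 2). GPCPD1, an enzyme of choline metabolism, had 16.9 and 28.2 RPM with drug and 1.64 and 1.42 RPM with vehicle, and ZAK, a kinase of the ribotoxic stress response, had 13.8 and 22.0 RPM with drug and 1.55 and 1.63 RPM with vehicle. In AMD1, of polyamine synthesis, the drug libraries held 6.16 and 14.5 RPM and the vehicle libraries 0.660 and 0.526 RPM (4.12, and 3.37 without J2 drug replicate 2). GAREM rose most (6.44), but 99.9% of the difference lay in intron 1, which holds the pseudogene HNRNPA1P7, so its value is uncertain. EOGT and SBNO1 completed the set with HDX and PRPF39, at 3.48 to 5.05. Several of these rises were not met in the input, where the log2 change was -1.31 in AMD1 (adjusted p = 0.0167, edgeR with Benjamini-Hochberg) and -0.26 in CUL5, 0.22 in ZAK and 0.38 in SBNO1, none of these 3 past the threshold. In CUL5, GPCPD1, ZAK and AMD1 the second drug library was well above the first, beside the difference between the drug libraries given above.

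The largest falls of spliced reads came with higher intronic shares, which a fall of spliced reads raises by itself. Intronic reads summed over PLEKHJ1 were 24 and 39 with drug and 35 and 26 with vehicle. In SLC35C2 they were 172 and 134 with drug and 133 and 142 with vehicle, and in PTPRH 396 and 371 against 330 and 297. PLEKHJ1 had 2.58 and 2.68 RPM with drug and 56.8 and 54.3 RPM with vehicle (-4.40 ± 0.11, edgeR with Benjamini-Hochberg, adjusted p = 1.04e-08), and 39.2% and 41.9% of reads at its intron 3 of 5 were intronic with drug, against 0.975% and 1.14% with vehicle. SLC35C2, a nucleotide sugar transporter homologue, had 2.36 and 2.30 RPM with drug and 48.4 and 48.7 RPM with vehicle, with 91.4% and 90.4% intronic reads at intron 4 of 9 against 24.6% and 23.1%. VAMP2, a SNARE protein of vesicle fusion, had 0.380 and 0.283 RPM with drug and 5.43 and 5.30 RPM with vehicle. PTPRH, a receptor phosphatase, had 3 and 3.09 RPM with drug and 41.5 and 40.3 RPM with vehicle, and intron 8 of 17, which holds another PTPRH exon, was 90.7% and 94.8% intronic with drug and 51.5% and 50.4% with vehicle. ARFRP1, a Golgi GTPase, had 1.84 and 1.57 RPM with drug and 21.7 and 23.2 RPM with vehicle. LRSAM1, SLC25A42 and C2orf68 fell by 3.82 to 4.26 on the log2 scale. BTN3A1, a butyrophilin of T cell recognition, had 0.260 and 0.434 RPM with drug and 9.96 and 2.84 RPM with vehicle (-4.19, but -3.02 without J2 vehicle replicate 1 and -4.83 without J2 vehicle replicate 2). That both drug libraries lie below both vehicle libraries was a condition for naming these genes.

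Summed over a gene, the ratio rose in 4466 of 7046 genes (63.4%) and fell in 330 (4.68%) by limma with Benjamini-Hochberg, with a median log2 change of 1.83. With median-of-ratios scaling of both kinds of read the median was 0.37, and changes of lists below are to be read against these 2 medians. TPM1, the actin-binding tropomyosin, had 15.6% and 20.9% intronic reads with drug and 0.0443% and 0% with vehicle, most of the gain in intron 7 of 8, and its spliced reads fell (8.88 and 9.47 RPM with drug, 42.5 and 39.2 RPM with vehicle). HECTD3, a ubiquitin ligase, had 21.4% and 19.9% with drug and 0.0723% and 0.0668% with vehicle (7.98 ± 0.29, limma with Benjamini-Hochberg, adjusted p = 1.05e-05). CTPS1, which makes the nucleotide CTP, had 42.4% and 40.9% with drug and 0.255% and 0.190% with vehicle. ISCA2, of iron-sulphur cluster assembly, overlaps an exon of NPC2, so its value of 8.15 (7.36 and 8.95 without J2 vehicle replicate 1 or 2) is uncertain. The genes with the largest falls of the ratio also had higher spliced reads, which lower the ratio by themselves. Gene calls asked for no minimum of intronic reads. NT5C2, a cytosolic nucleotidase, had 5.15% and 2.79% intronic reads with drug and 31.4% and 30.4% with vehicle (-3.46), beside 11 and 16.4 RPM of spliced reads with drug and 4.42 and 4.30 RPM with vehicle. IMMP1L and UBE2V2 fell in ratio too (-4.07 and -3.53, the second -2.70 and -4.36 without J2 drug replicate 1 or 2), but with the G and C trend removed their spliced reads did not pass (0.18 and 0.15). DGUOK (-3.20) rested on few intronic reads, 4 and 0 with drug and 13 and 6 with vehicle. It lost its call without J2 drug replicate 2 (-1.90) or J2 vehicle replicate 1 (-2.68).

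The lists of genes by function are given as counts, to be read beside the 34.6% of all genes that rose and 39.5% that fell in spliced reads (3157 and 2947 of 8283 with the G and C trend removed) and the 63.4% that rose and 4.68% that fell in ratio. With median-of-ratios scaling the ratio rose in 2271 and fell in 1330 of 7046 genes, so low counts of falls below hold for the ratio without scaling. No test set a list against other genes. In 3 lists of the splicing machinery rises of spliced reads outnumbered falls, and in the hnRNP list they did not. SF3b itself, which the drug binds, had 6 tested genes, of which 3 rose and 1 fell (median 0.26), and the ratio rose in 4 of 6. SF3B3, which cradles the branch point binding subunit, had 43.1 and 40.9 RPM with drug and 30.0 and 28.6 RPM with vehicle (0.52 ± 0.08, edgeR with Benjamini-Hochberg, adjusted p = 0.000288). SF3B4 had 34.1 and 35.4 RPM with drug and 21.3 and 21.3 RPM with vehicle (0.71), and SF3B6, which contacts the branch point, 22.5 and 28.8 RPM with drug and 16.5 and 16.3 RPM with vehicle (0.64, and 0.07 with the G and C trend removed). DDX42, a helicase that joins SF3b during assembly, fell to 7.70 and 9.19 RPM with drug, against 19.8 and 20.3 RPM with vehicle (-1.25). SF3B2 (-0.08, adjusted p = 0.168) and PHF5A (-0.00, adjusted p = 0.995) did not pass by edgeR, and with the G and C trend removed SF3B2 had 0.45. SF3B1, which holds the drug's binding site together with PHF5A, had only 3 listed introns and under 1 RPM in every J2 library, and was not tested. The ratio calls of SF3B3, SF3B4 and DDX42 (1.18, 2.58 and 3.29) depended on single libraries: without J2 drug replicate 1 SF3B3 had 1.00, without J2 drug replicate 2 SF3B4 had 1.99 and DDX42 2.72, without J2 vehicle replicate 1 SF3B4 had 1.84 and without J2 vehicle replicate 2 DDX42 had 2.42, none of them past the threshold. Under median-of-ratios scaling no SF3b gene passed for the ratio.

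Among other spliceosome genes 25 of 50 rose and 13 fell in spliced reads (median 0.30), and the ratio rose in 27 of 48 and fell in 1. U2AF2, which reads the pyrimidine tract next to the branch point, had 268 and 271 RPM with drug and 129 and 124 RPM with vehicle (1.09 ± 0.05, edgeR with Benjamini-Hochberg, adjusted p = 4.57e-08). At the same time 66.4% and 67.7% of reads at its intron 3 of 11 were intronic with drug, against 1.30% and 1.48% with vehicle. PRPF6, of the U5 particle, had 117 and 118 RPM with drug and 56.6 and 55.3 RPM with vehicle, and its intron 19 of 20 was 91.2% and 90.2% intronic against 16.4% and 21.1%. SNRPB, a core Sm protein, had 272 and 278 RPM with drug and 140 and 140 RPM with vehicle. SF1, which binds the branch point before SF3b, fell to 13.8 and 12.6 RPM with drug, against 42.5 and 42.2 RPM with vehicle (-1.68). Both kinds of change thus appeared among proteins that recognise the 3′ end of introns.

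Of 27 SR proteins and related regulators 15 rose and 5 fell in spliced reads (median 0.68), and 13 and 9 with the G and C trend removed (median 0.22). The ratio rose in 12 of 25 and fell in 4 (median 0.71, against 1.83 for all genes, and -0.77 against 0.37 under median-of-ratios scaling). LUC7L, a U1-associated factor, had 34.6 and 37.6 RPM with drug and 12.2 and 13.5 RPM with vehicle. SRSF2, an exon-binding regulator, had 11.2 and 12.3 RPM with drug and 3.43 and 3.65 RPM with vehicle, in an intron that overlaps MFSD11, so its reads are uncertain. RBM10, a repressor of exons, fell to 38.0 and 33.5 RPM with drug, against 128 and 125 RPM with vehicle (-1.82), and its relative RBM5 fell too (-1.95). CLK3, a kinase of SR proteins, had like spliced reads in both groups (21.7 and 22.2 RPM with drug, 22.0 and 22.0 RPM with vehicle), but a change of 0.51 with the G and C trend removed (adjusted p = 1.59e-05, edgeR with Benjamini-Hochberg). Its last intron, which holds another CLK3 exon, was 84.0% and 85.9% intronic with drug and 43.9% and 39.2% with vehicle. Of 23 hnRNP genes 8 rose and 9 fell. HNRNPL and PTBP1, which repress exons, had retained introns, with 70.5% and 72.2% at HNRNPL intron 7 with drug against 8.70% and 9.20% with vehicle, and 65.2% and 61.1% at PTBP1 intron 4 against 3.50% and 5.17%. HNRNPU, a nuclear scaffold protein, fell to 12.7 and 14.3 RPM with drug, against 46.9 and 44.8 RPM with vehicle.

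Genes that make, export and degrade messenger RNA moved in both directions. Of 17 nonsense-mediated decay factors 8 rose and 5 fell in spliced reads (median 0.25), and the ratio rose in 9 of 16 and fell in none. UPF1, the helicase of that pathway, had 75.2% and 76.0% intronic reads at intron 15 of 23 with drug and 1.83% and 0% with vehicle, and spliced reads of 28.6 and 28.4 RPM with drug and 34.7 and 34.1 RPM with vehicle (-0.27, and 0.28 with the G and C trend removed). SMG1, the kinase of UPF1, had 4.5 and 5.57 RPM with drug and 0.981 and 0.789 RPM with vehicle. SMG9, a partner of that kinase, fell to 5 and 5.96 RPM with drug, against 20.6 and 20.5 RPM with vehicle (-1.90). Of 19 mRNA export genes 8 rose and 8 fell, and THOC6, of the THO complex, fell to 6.32 and 8.02 RPM with drug, against 58.8 and 55.7 RPM with vehicle (-3.0 ± 0.10, edgeR with Benjamini-Hochberg, adjusted p = 2.28e-08). Of 18 RNA exosome genes 8 rose and 5 fell. The exosome nuclease EXOSC10 fell to 2.34 and 2.79 RPM with drug, against 17.6 and 17.8 RPM with vehicle, while the exosome helicase SKIV2L2 had 12.4 and 14.5 RPM with drug and 2.98 and 2.79 RPM with vehicle. Of 11 RNA polymerase II subunits 7 rose and 4 fell, and the largest subunit POLR2A fell to 3.62 and 2.72 RPM with drug, against 18.9 and 18.2 RPM with vehicle (-2.55). POLR2B rose (3.68 and 7.77 RPM with drug, 0.755 and 0.702 RPM with vehicle, 2.97, and 2.33 without J2 drug replicate 2).

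Genes of protein synthesis and turnover changed both ways in spliced reads, and some named members held retained introns. Of 44 large-subunit ribosomal protein genes 13 rose and 21 fell in spliced reads (median -0.12, and 22 and 16 of 42 with a median of 0.24 with the G and C trend removed), and the ratio rose in 31 and fell in none (median 1.99), or 19 and 10 with median-of-ratios scaling. Of 28 small-subunit genes 10 rose and 7 fell (17 and 6, median 0.40, with the G and C trend removed), and the ratio rose in 22 and fell in none (median 2.03), or 11 and 4 with median-of-ratios scaling. RPL31 had 58.6% and 58.7% intronic reads at intron 1 of 4, which holds another RPL31 exon, with drug and 1.59% and 0.981% with vehicle, and its spliced reads were 147 and 141 RPM with drug and 322 and 350 RPM with vehicle (-1.22). RPS29 had 54.3% and 62.8% at intron 1 of 2 with drug and 1.27% and 0.783% with vehicle. Of 34 translation initiation factors 17 rose and 12 fell in spliced reads, and the scaffold EIF4G1 had 187 and 192 RPM with drug and 393 and 388 RPM with vehicle. Of 30 proteasome subunits 13 rose and 13 fell. PSMD3, of the regulatory lid, fell to 44.8 and 40.9 RPM with drug, against 165 and 161 RPM with vehicle (-1.93), with 75.2% and 74.9% intronic reads at intron 1 against 7.16% and 8.49%. Of 51 respiratory chain subunits 15 rose and 21 fell (24 and 15 with the G and C trend removed), among them UQCRC1 of complex III with 78.8 and 70.6 RPM with drug and 295 and 285 RPM with vehicle. Ribosomal and other multicopy families have processed copies in the genome, and how reads that match several places were counted is not given in the sources used here.

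Interferon-stimulated genes mostly fell in spliced reads. Of 36 tested 5 rose and 23 fell, with a median log2 change of -0.70 against -0.03 for all genes, and 11 rose and 18 fell of 35 (median -0.41) with the G and C trend removed. The ratio rose in 19 of 30 and fell in none (median 1.78, against 1.83 for all genes). IRF1, a transcription factor of the interferon response, had 17.3 and 15.1 RPM with drug and 65.3 and 62.8 RPM with vehicle (-1.98 ± 0.08, edgeR with Benjamini-Hochberg, adjusted p = 3.29e-08). STAT2, which carries the interferon signal to the nucleus, had 1.16 and 1.66 RPM with drug and 7.04 and 6.60 RPM with vehicle. PARP10, an ADP-ribosyltransferase, had 1.52 and 1.06 RPM with drug and 9.47 and 8.28 RPM with vehicle. SP100, of nuclear bodies, went the other way with 107 and 97.3 RPM with drug and 23.2 and 24.8 RPM with vehicle (2.09). Only reads across removed introns are counted here, so the falls do not measure all RNA recovered from these genes.

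Sensors and partners of double-stranded RNA, the ligand of J2, were split. Of 25 genes of this list 11 rose and 8 fell in spliced reads (median 0.04, and 16 and 8 with a median of 0.38 with the G and C trend removed), and the ratio rose in 12 of 20 and fell in none. DHX58 fell to 4.62 and 4.32 RPM with drug, against 22.7 and 21.8 RPM with vehicle (-2.31), and 91.8% and 96.5% of reads at its intron 12 of 13 were intronic with drug, against 20.1% and 19.7% with vehicle. PRKRA, an activator of the kinase PKR, had 8.28 and 8.58 RPM with drug and 1.43 and 1.79 RPM with vehicle (2.38). In the NF-kB and cytokine list, 25 genes were tested, with 5 rises and 12 falls (median -0.41, and 10 and 12 with a median of -0.27 with the G and C trend removed), and the ratio rose in 16 of 22. NFKB2, the p100 precursor of the noncanonical pathway, fell to 9.76 and 11.3 RPM with drug, against 59.1 and 57.2 RPM with vehicle (-2.46), and its partner RELB to 7.40 and 6.75 RPM against 23.0 and 24.5 RPM (-1.75). RELA, the partner of the canonical pathway, rose to 92.1 and 88.8 RPM with drug, against 44.9 and 42.3 RPM with vehicle (1.05). TNFAIP2, a target of NF-kB, had 69.5% and 70.2% intronic reads at intron 9 with drug and 5.58% and 5.04% with vehicle.

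Stress and survival genes gave mixed counts. Of 35 genes of the integrated stress and unfolded protein responses 6 rose and 18 fell (median -0.35, and 12 and 17 of 34 with the G and C trend removed), and the ratio rose in 17 of 32 and fell in 4. PHGDH and SHMT2, enzymes of serine and glycine synthesis, fell to 84.4 and 87.5 RPM and to 105 and 93.5 RPM with drug, against 175 and 171 RPM and 228 and 218 RPM with vehicle. PPP1R15A, the phosphatase subunit GADD34 that reverses the stress block of translation, rose to 149 and 146 RPM with drug, against 69.7 and 69.1 RPM with vehicle (1.09). Of 25 heat shock proteins and chaperones 14 rose and 9 fell, and TCP1, a subunit of the chaperonin TRiC, had 19.0 and 36.1 RPM with drug and 3.53 and 3.47 RPM with vehicle. Of 17 apoptosis regulators 10 rose and 5 fell. The survival factors BCL2L1 (14.6 and 16.1 RPM with drug, 6.62 and 6.56 RPM with vehicle) and BIRC5 (56.6 and 52.1 RPM with drug, 25.9 and 22.9 RPM with vehicle) rose, and BAX, which permeabilises mitochondria, fell (9.76 and 10.1 RPM with drug, 21.4 and 21.6 RPM with vehicle). For BCL2L1 the reads cannot tell its long and short splice forms apart. Of 17 p53 regulators and targets 3 rose and 8 fell, and the ratio rose in 12 of 13 (median 3.01). CDKN1A, the inhibitor p21, had 2.58 and 2.85 RPM with drug and 8.62 and 8.56 RPM with vehicle, and 32.1% and 21.8% intronic reads at intron 2 against 0.868% and 1.21%.

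Of 35 mitotic genes tested 24 rose and 6 fell in spliced reads, beside 34.6% and 39.5% of all genes (median 0.69), 19 and 6 with the G and C trend removed (median 0.46), and the ratio rose in 19 of 29, a share near the 63.4% of all genes, and fell in 1 (median 2.58). MAD2L1, of the spindle checkpoint, had 54.9 and 48.6 RPM with drug and 5.28 and 5.35 RPM with vehicle (3.28 ± 0.09, edgeR with Benjamini-Hochberg, adjusted p = 1.04e-08), while CDC20, which the checkpoint inhibits, fell to 55.9 and 50.6 RPM with drug, against 128 and 135 RPM with vehicle (-1.31). INCENP, the scaffold of the chromosomal passenger complex, rose (1.18). The kinase of that complex, AURKB, had like spliced reads in both groups (15.9 and 15.5 RPM with drug, 15.4 and 14.4 RPM with vehicle, 0.08, and 0.60 with the G and C trend removed) but 85.8% and 82.1% intronic reads at intron 7 with drug, against 1.06% and 0% with vehicle. CDC25B, the phosphatase that activates CDK1, fell (42.1 and 41.1 RPM with drug, 152 and 154 RPM with vehicle, -1.88). Of 54 genes of DNA replication and repair 14 rose and 17 fell. The replication factors CDC45 (4.56 and 4.72 RPM with drug, 20 and 20.5 RPM with vehicle) and ORC6 (0.640 and 0.660 RPM with drug, 5.57 and 5.35 RPM with vehicle) and the repair scaffold XRCC1 (20.4 and 19.6 RPM with drug, 83.2 and 75.9 RPM with vehicle) fell. Of 24 kinesins 11 rose and 5 fell, led by KIF18B (1.82), a microtubule depolymerising motor.

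Of 16 immediate-early genes 6 rose and 4 fell (10 and 4 with the G and C trend removed), and the ratio rose in 13. MYC had 45.3% and 47.2% intronic reads at intron 1 with drug and 17.6% and 18.2% with vehicle, and lower spliced reads (-0.41, and 0.05 with the G and C trend removed). Of 37 membrane trafficking coats and adaptors 14 rose and 15 fell in spliced reads, and of 84 single introns of these genes with at least 10 intronic reads 70 rose in ratio and 1 fell, beside 67.2% and 3.13% of all 15548 introns tested that way. AP2A1, of the clathrin adaptor, had 27.6 and 29.3 RPM with drug and 117 and 119 RPM with vehicle (-2.06), and COPA, of the COPI coat, had 8.10 and 8.26 RPM with drug and 35.5 and 35.4 RPM with vehicle. AP3D1 alone gave 18 of those 70. Metabolic lists were split as well. Of 18 glycolysis enzymes 7 rose and 8 fell, and PFKP, a phosphofructokinase, had 74.2% and 67.9% intronic reads at intron 5, which holds another PFKP exon, with drug and 0.433% and 0% with vehicle. Of 19 genes of cholesterol synthesis and uptake 5 rose and 9 fell (6 and 5 of 18, median 0.12, with the G and C trend removed), and the ratio rose in 14 of 16 (median 2.68). SREBF1, their transcription factor, fell to 6.54 and 7.57 RPM with drug, against 27.7 and 29 RPM with vehicle, with 97.7% and 97.2% intronic reads at intron 6 against 47.3% and 39.8%. Of 9 tested mesenchymal markers 2 rose and 4 fell, with summed spliced reads of 836 to 844 RPM with drug and 1004 to 1054 RPM with vehicle. For luminal markers the sums were 212 to 215 RPM with drug and 293 to 325 RPM with vehicle, nearly all of it KRT8, KRT18 and XBP1. Immune markers summed to 5.88 to 6.23 RPM with drug and 7.28 to 7.77 RPM with vehicle, nearly all of it CD68, and their part in the results was not tested.

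**Figure D5:**
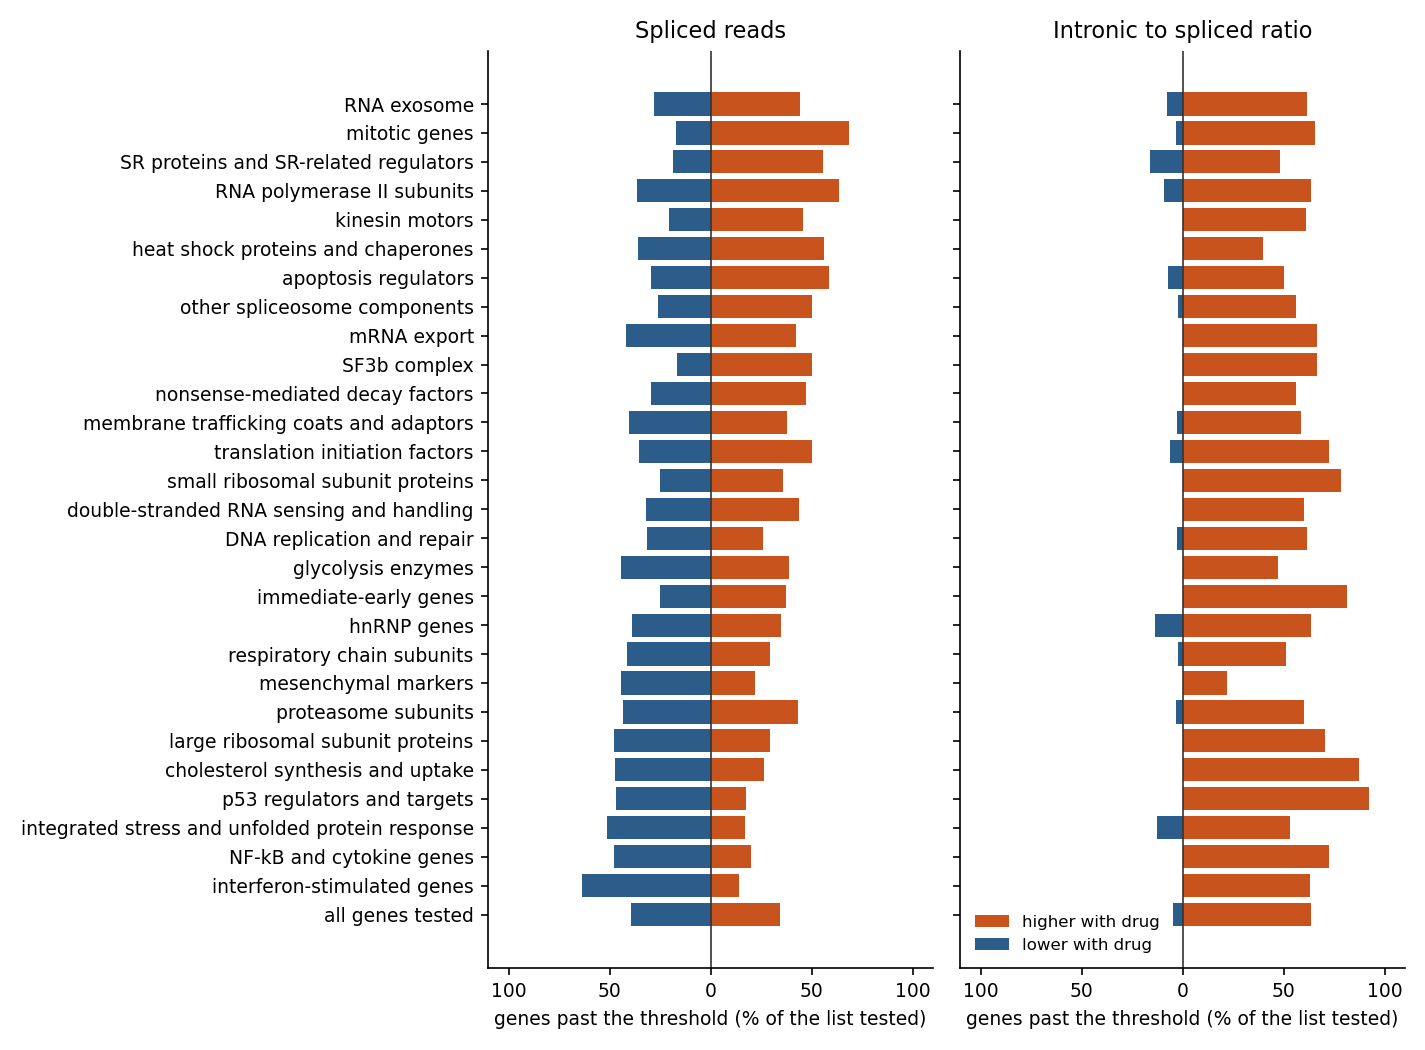
Percentage of the tested genes of each list that were higher (orange, right of 0) or lower (blue, left of 0) with drug, for spliced reads by edgeR (left panel) and for the intronic to spliced ratio by limma (right panel), with all genes tested at the bottom. For spliced reads interferon-stimulated genes have 23 of 36 falls and mitotic genes 24 of 35 rises, beside 39.5% and 34.6% of all genes. For the ratio, used here without scaling, rises outnumber falls in every list drawn. Under median-of-ratios scaling the ratio's median was below 0 in SR proteins (-0.77), chaperones (-0.43), mesenchymal markers (-0.16) and respiratory chain subunits (-0.02).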

How the data were processed

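RNA of SUM159 cells was sequenced from stranded polyA libraries, per the labels. Alignment with HISAT2 2.0.4 and the builds hg38 and mm10 are listed in the submitters' processing notes; the counting program and strand setting are not given in the sources used here. Each file deposited by the authors lists 142224 introns without a header. The first deposited value is a whole-number read count taken as intronic reads, and the second deposited count is never below it, its excess being taken as spliced reads, a reading inferred from the values. The last is an RPKM the authors computed from the first count, whose depth (47000000 to 57000000 reads) served as library size. The 18 introns without a second count were left out. No column of another sample was used.

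Intronic reads per intron and spliced reads per gene were tested with edgeR 4.0.16 in R 4.3.3 (quasi-likelihood, all 8 libraries, 4 group means), and log2((intronic + 1)/(spliced + 1)) with limma 3.58.1. Tested were introns with at least 0.2 RPM of intronic reads in 2 libraries or, for the ratio, a mean of 40 reads, and genes with 1 RPM in 2 libraries or, for the ratio, a mean of 100 reads. The edgeR SE was taken as |log2 fold change|/√F. Of 142224 introns, 97.3% matched an intron of a linked GENCODE 29 transcript. Named introns had the largest changes past the threshold with at least 2 RPM of intronic reads, one direction across every pairing of J2 libraries and no exon of another gene, 12 each way. Named genes had at least 5 RPM, and list members were those with the smallest p per list, SF3b and marker genes being added; TMEM120B, TMEM63B, PREX1 and DPP9 were chosen with their values in view, for the comparison of spliced reads before and after an intron. The libraries, lists and rules were chosen with earlier results of these data known. Replicate numbers did not pair the libraries (correlations 0.00475 and -0.0309). Alternatives were other scalings, DESeq2 1.42.0, other filters and pseudocounts, each library left out and a replicate block. The tests were checked on simulated counts. Of log2 changes of 1 and 2, 14.5% and 58% were recovered for intronic reads and 79.5% and 98.5% for spliced reads of genes. For the intron ratio 0% were recovered at a log2 change of 2 and 74% at 4. Up to 6.92% of the calls were false. Some introns and genes that met the naming rule are not reported here.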

Additional observations from a re-analysis of the deposited data

How the results depend on the processing

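Intronic reads rose at 5466, 5877 and 4693 introns and fell at 3192, 2944 and 2592 with TMM scaling, median-of-ratios scaling and DESeq2, which by construction centre the changes, and a filter 5 times as high left 4322 and 350 of 5156. The ratio rose at 5868 introns with that filter, 9322 with median-of-ratios scaling and 9817 with edgeR on 2 columns. Its falls were 3482 with a pseudocount of 5, 306 with the higher filter, 4482 with a filter at 10 reads, 3533 with median-of-ratios scaling, 268 with edgeR on 2 columns and 486 of 15548 with at least 10 intronic reads, a setting added after seeing the data. The J2 effect minus the input effect passed at 1988 introns upwards and 2015 downwards with a pseudocount of 5, at 82 and 51 with edgeR on 2 columns and at 2 and 13 with at least 10 intronic reads, both added later. Spliced reads rose in 1869 genes with the higher filter. The gene ratio rose in 2839 genes with that filter and 2271 with median-of-ratios scaling, and fell in 512 with a pseudocount of 5, 117 with the higher filter and 1330 with median-of-ratios scaling. The intronic share over all introns was 12.7% ± 0.292 with drug and 3.80% ± 0.248 with vehicle, and 11.8% and 2.82% in introns free of other genes' exons. The causes of these differences were not tested, apart from the fewer introns or genes that a filter keeps.

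Leaving out 1 library gave 9437 to 9592 rises and 623 to 685 falls of intronic reads, 11077 to 12663 and 955 to 1534 of the intron ratio, 2456 to 3162 and 2982 to 3394 of spliced reads and 3942 to 4168 and 224 to 306 of the gene ratio. With the replicate block the counts were 10122 and 758 introns, 14475 and 1617 introns by ratio, and 2902 and 3312 genes, and the numbers did not pair the libraries. Of 3152 alternatives for 261 named results 3099 kept direction and side of the threshold, 32 lost and 6 gained the call, and 15 changed sign. Those were PHF5A spliced reads (near 0 throughout, at -0.0743 to 0.0683 with 1 library left out, the highest without J2 drug replicate 1 and 0.0166 without J2 vehicle replicate 2, 0.0648 with TMM, 0.0718 with median-of-ratios scaling and with DESeq2, 0.10 with the G and C trend removed), spliced reads with that trend removed in SF3B2 (0.45), EIF3H (-0.00729), PFKL (0.11), VIM (0.22), KRT8 (0.17) and CD68 (0.20), and the ratio with median-of-ratios scaling in SF3B2 (-0.28), SF3B3 (-0.45) and MYC (-0.14). With 2 libraries a group the tests also missed changes in simulated counts, above all for the intron ratio. That test found 0% of the changes of log2 2, so an intron without a call is not shown to be unchanged.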

Other observations

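At some introns the 2 vehicle libraries held very different intronic counts. KRT18 intron 4 (chr12:52950907-52951480) held 204 and 425 reads with drug and 1249 and 23 with vehicle. MT1M, a metallothionein, had 651 and 1195 reads in intron 1 with drug and 732 and 72 with vehicle. Neither gave a call that the text relies on, and the cause was not tested.

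Several housekeeping transcripts showed intronic reads at levels hidden by their abundance. GAPDH, the glycolytic dehydrogenase, had 3.11% and 2.54% intronic reads at intron 4 of 8, which holds another GAPDH exon, with drug and 0.0811% and 0.0512% with vehicle, while its spliced reads were 2842 and 2718 RPM with drug and 3157 and 3084 RPM with vehicle. ATF4, the transcription factor of the integrated stress response, had 2.69% and 3.09% at its listed intron with drug and 0.0338% and 0.0832% with vehicle (log2 ratio change 5.39, limma with Benjamini-Hochberg, adjusted p = 6.52e-05), with spliced reads that did not pass the test (-0.02, and 0.52 with the G and C trend removed).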
